A study of Mus musculus with 41 samples.

Results

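The 5 saline-treated single cells described here carried the endothelial gene Pecam1 at more than 100 CPM, where CPM is the count of a gene scaled to a total of 1000000 counts in its cell, out of 11 saline cells and 26 single cells in all. The other 6 saline cells, at or below that level, are set against them. Pecam1 itself chose the cells, and every other gene was read from the same libraries, so all differences between the Pecam1-carrying and the other saline cells are given as descriptions without a test. The cells keep their labelled numbers: the Pecam1-carrying cells are saline cells 1, 6, 7, 9 and 10, and the other cells are saline cells 2, 3, 4, 5, 8 and 11.

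The series holds 41 samples of fetal mouse lung and asks about glucocorticoid exposure before birth. For the single cells, wild type C57Bl6/J dams received 2 mg/kg dexamethasone, a synthetic glucocorticoid, or saline by intraperitoneal injection at E17.5 (days of embryonic development), and the lungs of their pups were digested 24 h later, which gave 15 dexamethasone cells and 11 saline cells from the C1 system, a microfluidic device that captures single cells. Red blood cells were lysed, and the labels name no sort or gate for the single cells and no animal or litter for any of them, so each treatment counts as 1 sample. Bulk libraries of CD106+ and CD106- lung cells at E18.5, 2 of each and with no treatment or mouse strain named in their labels, are also used here, and the Pecam1 rule used neither these nor the dexamethasone cells. CD106 is the adhesion protein encoded by Vcam1.

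Endothelial cells line blood and lymph vessels. PECAM1 (CD31) and VE-cadherin, encoded by Cdh5, join neighbouring endothelial cells. Their receptors include those for VEGF (Kdr, Flt1, Flt4) and for angiopoietins (Tek, with its relative Tie1). Endothelial cells secrete PDGF-B, which recruits the pericytes and smooth muscle that wrap the vessel. The fetal lung mesenchyme around them makes collagens, elastin and fibronectin and carries transcription factors such as Tcf21.

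Depth overlapped between the Pecam1-carrying and the other saline cells. Their total counts were 1156871, 1448604, 1787997, 1480780 and 1692866, and those of the other saline cells ran from 879285 to 1528391. Genes with a count numbered 4313, 4877, 5795, 5612 and 5198 in the Pecam1-carrying cells and 3450 to 5844 in the other cells, and with every cell thinned to 800000 counts they numbered 3950 to 5152 in Pecam1-carrying cells and 3317 to 5252 in the others. The ranges overlapped each time. Rn45s, the ribosomal RNA precursor, took 3.88% of the counts of cell 1 and 1.04 to 2.14% in the other 10 saline cells. Whether a capture site held more than 1 cell was not tested. Of the saline cells, cell 11, which is not Pecam1-carrying, shares a position and index name with dexamethasone cell 2, and 6510 of the 6553 genes with a count in either had unequal counts.

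Pecam1 (chr11:106654213-106715281, build GRCm38) stood at 1099, 676, 196, 1323 and 291 CPM in Pecam1-carrying cells 1, 6, 7, 9 and 10, the order used for values of these 5 cells throughout. The other saline cells had 16.4, 26.5, 0, 9.34, 37.3 and 0 CPM in cells 2, 3, 4, 5, 8 and 11, the order used for them. The member just inside the threshold was cell 7 at 196 CPM and the cell just outside it was cell 8 at 37.3 CPM, so no saline cell lay near 100 CPM. Pooled over cells, Pecam1 came to 667 CPM in Pecam1-carrying cells (exact Poisson 95% interval 649 to 686) and 14.7 CPM in the other cells (12.0 to 17.8), and these intervals cover counting error only, since reads without molecular identifiers are not independent molecules.

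Other endothelial genes followed the split in varying degree. Of 46 endothelial genes listed besides Pecam1, 31, 31, 23, 28 and 32 were detected, here meaning 10 CPM or more, in the 5 Pecam1-carrying cells, and 14, 10, 11, 9, 13 and 10 in the 6 other cells. Summed over the 46 genes the level was 21069, 29075, 19148, 18194 and 27761 CPM in Pecam1-carrying cells and 10301, 1747, 11049, 1201, 1331 and 935 CPM in the other cells, a log2 ratio of medians of 3.77. Neither measure overlapped between the groups, although cells 2 and 8 came closest by number of genes and cells 2 and 4 by the sum. A sum of CPM mixes genes of unequal length, so it compares cells and not genes.

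**Figure D1:**
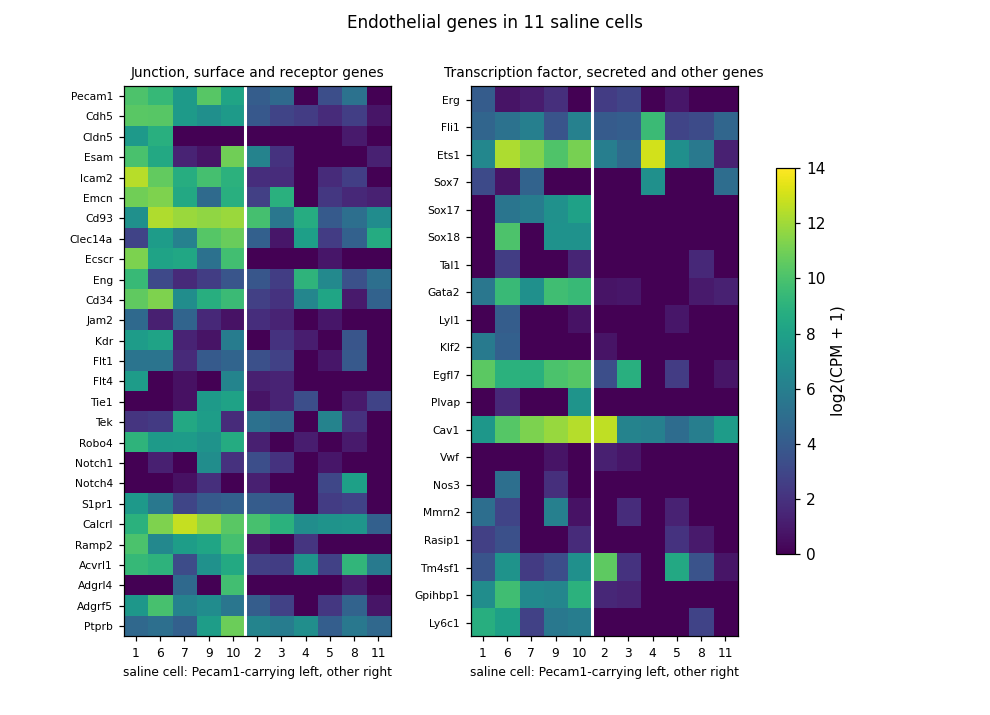
Levels of 47 endothelial genes as log2(CPM + 1), colour scale 0 to 14, with 1 row per gene and 1 column per saline cell; the 5 Pecam1-carrying cells stand left of the white line and the 6 other cells right of it. Icam2, Ecscr, Robo4, Ramp2, Gata2 and Gpihbp1 are bright or green in all 5 cells on the left and dark on the right, while Ets1 and Fli1 are brightest in cell 4.

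A core of 6 endothelial genes, Icam2, Ecscr, Robo4, Ramp2, Gata2 and Gpihbp1, was detected in 5 of 5 Pecam1-carrying cells and in 0 of 6 other cells. The share of all genes with that pattern was not counted, but genes besides the 46 had it too. Among genes with a mean of 20 CPM or more these were Tspan13, Scarb1, Slco2a1, Dnaja2, Ppap2a, Kdsr and Arhgap18. The pattern was thus not particular to the listed endothelial genes. A different measure was counted over all 6131 genes with a mean of 20 CPM or more in the saline cells. Every Pecam1-carrying cell stood above every other cell in 0.750% of them. Nothing is read from this share, since the same cells were chosen by 1 of these genes. In build GRCm38 Icam2 lies at chr11:106377656-106388139, Robo4 at chr9:37401902-37414023, Ramp2 at chr11:101246334-101248250, Gata2 at chr6:88193891-88207032 and Gpihbp1 at chr15:75596630-75598213.

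Of these 6 genes, Robo4 and Gata2 had entries in the promoter table of RefSeq (GRCm38.p6), which gives 250 bases before to 50 bases after a start site. Their promoter windows are printed because both are among the 6 listed endothelial genes detected in 5 of 5 Pecam1-carrying and 0 of 6 other cells. Capitals mark GGAA and its reverse complement TTCC, the core letters that ETS transcription factors such as Ets1, Fli1 and Erg bind.
Robo4: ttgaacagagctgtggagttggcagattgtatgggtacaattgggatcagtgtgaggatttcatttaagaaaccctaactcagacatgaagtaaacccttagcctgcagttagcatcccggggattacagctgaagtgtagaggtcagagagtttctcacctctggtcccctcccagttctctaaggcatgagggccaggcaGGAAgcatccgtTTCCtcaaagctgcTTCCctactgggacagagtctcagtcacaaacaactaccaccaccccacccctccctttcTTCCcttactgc
Gata2 upstream window: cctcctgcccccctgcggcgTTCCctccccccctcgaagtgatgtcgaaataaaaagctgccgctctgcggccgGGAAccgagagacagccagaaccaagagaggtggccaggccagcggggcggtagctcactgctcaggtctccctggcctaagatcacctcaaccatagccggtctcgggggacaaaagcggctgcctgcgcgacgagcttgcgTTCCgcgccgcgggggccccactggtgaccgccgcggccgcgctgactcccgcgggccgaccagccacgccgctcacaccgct
Gata2 downstream window: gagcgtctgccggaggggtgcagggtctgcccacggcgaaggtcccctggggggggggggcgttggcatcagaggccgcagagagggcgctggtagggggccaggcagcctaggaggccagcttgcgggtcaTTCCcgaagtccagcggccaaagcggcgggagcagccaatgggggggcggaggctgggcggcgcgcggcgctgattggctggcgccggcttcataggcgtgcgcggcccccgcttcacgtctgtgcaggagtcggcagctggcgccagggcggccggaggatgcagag
The Robo4 window is chr9:37401722-37402021 on the + strand, and the Gata2 windows, of 2 start sites, are chr6:88193641-88193940 and chr6:88198414-88198713, also on the + strand. The Robo4 window held GGAA 1 time and TTCC 3 times, the upstream Gata2 window GGAA 1 time and TTCC 2 times, and the downstream one GGAA 0 times and TTCC 1 time. Of all 32851 promoter windows in that table, 96.0% hold at least 1 of these core strings. The longer string GGAAGT, or ACTTCC on the other strand, which contains the core, was in none of the 3 windows and in 23.8% of all. A match describes letters and is no evidence of binding.

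Among the junction and surface genes, Cdh5 stood at 1359, 1323, 194, 125 and 194 CPM in Pecam1-carrying cells and at 0.741 to 13.7 (median 4.79) CPM in the other cells. Icam2, an adhesion protein of endothelial junctions, stood at 5682, 1573, 419, 940.0 and 516 CPM in Pecam1-carrying cells and 0 to 5.04 (median 2.37) CPM in the others. Neither gene overlapped between the groups, and cells 1 and 6 had the highest level of both. Ecscr, an endothelial surface protein linked to cell movement, had 2436, 275, 327, 36.5 and 859 CPM in Pecam1-carrying cells and 0 to 0.779 (median 0) CPM in the others. Emcn, which encodes the sialomucin endomucin, had 2000.2, 2553, 348, 27.7 and 454 CPM in Pecam1-carrying cells and 0 to 464 (median 2.95) CPM in the others. The Emcn ranges overlapped through cell 3, whose 464 CPM exceeded cells 7, 9 and 10, and cell 9 was the lowest Pecam1-carrying cell for both genes. Cldn5, a tight junction claudin, was detected in cells 1 and 6 alone of the 11, at 190.2 and 452 CPM, and was 0 in the other 3 Pecam1-carrying cells.

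Some surface genes of the list were not restricted to the Pecam1-carrying cells. Cd93, a C-type lectin receptor, had 129.7, 5110.4, 3769.6, 3325 and 3742 CPM in Pecam1-carrying cells and 14.8 to 953 (median 78.1) CPM in the others, and was detected in all 11. Cell 1 was low for it among the Pecam1-carrying cells, below cells 2 and 4. Eng, the TGF-beta co-receptor endoglin, had 698, 7.59, 2.24, 4.73 and 11.8 CPM in Pecam1-carrying cells and 4.82 to 548 (median 22.9) CPM in the others, with the second highest level of the 11 in cell 4. Cd34, a sialomucin shared by endothelial and other progenitor cells, had 1527, 2545, 116, 444 and 748 CPM in Pecam1-carrying cells and 1.01 to 294 (median 12.6) CPM in the others, and cell 5 exceeded cell 7. For Cd93, Eng and Cd34 the groups therefore overlapped.

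Among the receptors, those for VEGF and angiopoietins were carried by different Pecam1-carrying cells. Kdr (VEGFR2), the main VEGF receptor of blood vessel endothelium, had 214, 275, 1.68, 0.675 and 57.3 CPM, so cells 7 and 9 held next to none, and the other cells had 0 to 12.1 (median 0.569) CPM. Tie1 had 0, 0, 0.559, 197 and 266 CPM in Pecam1-carrying cells and 0 to 9.1 (median 1.31) CPM in the others, which left it to cells 9 and 10. Tek (TIE2), the angiopoietin receptor, had 3.46, 4.14, 345, 224 and 2.36 CPM in Pecam1-carrying cells and 0 to 75.5 (median 14.0) CPM in the others. Thus Kdr was detected in cells 1, 6 and 10, Tie1 in cells 9 and 10 and Tek in cells 7 and 9. Each of the 5 cells carried at least 1 of these 3 receptors, but so did cells 2, 3, 5 and 8 of the others. Tek was detected in cells 2, 3 and 5, at 36.6, 24.9 and 75.5 CPM, and Kdr in cell 8 at 12.1 CPM. Flt1 (VEGFR1) was low in all, at 41.5, 41.4, 2.24, 14.9 and 21.9 CPM in Pecam1-carrying cells and 0 to 14.1 (median 3.2) CPM in the others. Flt4 (VEGFR3), a receptor prominent on lymphatic endothelium, was detected in cells 1 and 10 at 209 and 78.6 CPM.

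Other receptors ran through all 5 cells. Robo4, an endothelial guidance receptor, had 556, 197, 202, 147 and 394 CPM in Pecam1-carrying cells and 0 to 1.31 (median 0.504) CPM in the others. Ramp2 and Calcrl encode the partners that form the adrenomedullin receptor. Ramp2 had 1036, 93.2, 221, 297 and 938 CPM in Pecam1-carrying cells and 0 to 3.41 (median 0) CPM in the others. Calcrl had 494, 2519, 7092, 3348 and 1362 CPM in Pecam1-carrying cells and 18.52 to 955 (median 149.8) CPM in the others, detected in all 11 cells. Thus Ramp2 separated the groups and its partner Calcrl did not, since cells 2 and 3 exceeded cell 1. Pooled, Robo4 came to 287 CPM in Pecam1-carrying cells (275 to 299.6) and 0.550 CPM in the others (0.150 to 1.41), which is 4 counts.

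Of the transcription factors, Gata2 was the only listed one that separated the groups completely, with 46.7, 711, 129, 823 and 702 CPM in Pecam1-carrying cells and 0 to 1.48 (median 0.729) CPM in the others. Sox17 and Sox18, SOX factors of vessel formation, had 0, 42.8, 57.0, 135 and 259.9 CPM and 0, 1104, 0, 137 and 142 CPM in Pecam1-carrying cells and were 0 in all 6 others. Cell 1 had neither, and cell 7 had Sox17 without Sox18. Ets1 had 88.2, 4980.2, 2655, 1144 and 2245 CPM in Pecam1-carrying cells and 1.48 to 8428 (median 55.5) CPM in the others. Fli1 had 22.5, 37.3, 66.0, 11.5 and 69.7 CPM in Pecam1-carrying cells and 6.23 to 740.4 (median 16.0) CPM in the others. The highest level of both ETS factors was in cell 4, which had no Pecam1 count. Erg, a further ETS factor of endothelium, reached 10 CPM in cell 1 alone, at 15.6 CPM, and Tal1 in none of the 11.

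The secreted and other endothelial genes showed the same unevenness. Egfl7, a secreted endothelial matrix protein, had 1408, 492, 469, 1039 and 1289 CPM in Pecam1-carrying cells and 0 to 459 (median 2.71) CPM in the others, where cell 3 with 459 CPM stood just under cell 7. Gpihbp1, which holds lipoprotein lipase on the capillary wall, had 117, 829, 99.6, 83.7 and 515 CPM in Pecam1-carrying cells and 0 to 1.96 (median 0) CPM in the others. Cav1, the coat protein of caveolae, had 172, 1265, 2374, 3685 and 5571 CPM in Pecam1-carrying cells and 29.6 to 6524 (median 71.7) CPM in the others, and the highest level of the 11 was in cell 2. Plvap, a protein of capillary diaphragms, was detected in cell 10 alone at 149 CPM, Nos3 in cell 6 alone at 33.1 CPM, and Vwf in none.

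Set out by pattern, 17 of the 46 genes were detected in 5 of 5 Pecam1-carrying cells, 19 in 2 to 4 of them, 6 in 1 of them and 4 in none. The 6 detected in a single Pecam1-carrying cell were Notch1, Erg, Sox7, Lyl1, Plvap and Nos3. Notch4 was detected among the other cells and not among the Pecam1-carrying ones, with 251 CPM in cell 8, and Tal1, Vwf and Rasip1 in no saline cell. In all, 21 of the 46 were detected in at least 1 Pecam1-carrying cell and in 0 of 6 others. No such share was counted over all genes, so this count only describes the list. Between any pair of Pecam1-carrying cells, the shared genes made up 58.1 to 89.3% of the genes detected in either cell taken as the base. Cell 7, with 23 detected, lacked the most: it shared 18 with cell 1, which is 78.3% of its own and 58.1% of those of cell 1.

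Markers of vessel subtypes did not sort the 5 cells into 1 kind. Car4, a carbonic anhydrase of one alveolar capillary type, had 3129, 364, 319, 0 and 0.591 CPM, present in cells 1, 6 and 7 and absent from cells 9 and 10, against 0 to 0.779 (median 0) CPM in the other saline cells. Ednrb, the endothelin receptor B of the same capillary type, had 1258, 1316, 3069, 413 and 49.0 CPM in Pecam1-carrying cells and 3.11 to 15982 (median 647) CPM in the others, and its highest level was in cell 4. Kit and Gpihbp1 are used for the general capillary type, and Kit had 8.64, 87.7, 9.51, 958 and 283 CPM in Pecam1-carrying cells and 4.67 to 61.4 (median 21.0) CPM in the others. Cell 1 was thus high in Car4 and below 10 CPM in Kit, cell 9 the reverse, and cell 6 held both. Of the 6 arterial genes listed, Efnb2, the ligand ephrin-B2, had 194, 4.83, 761, 910.3 and 717 CPM in Pecam1-carrying cells and 6.05 to 29.6 (median 9.12) CPM in the others, and Hey1, a Notch target, was detected in cells 6 and 10 and in none of the others. The remaining 4 did not follow them. Gja5, a connexin of arteries, was 0 in all 5 Pecam1-carrying cells and reached 31.3 CPM in the others, and Dll4, a Notch ligand, was detected in cell 1 of the 5, at 15.6 CPM, and in cells 4 and 11 of the others, up to 110.3 CPM. Gja4, a further connexin, was detected in 1 cell of each group, at 166 CPM in cell 7 and 179.9 CPM in cell 2, and Bmx was 0 in all 11. Of the 5 venous genes listed, the 2 detected went opposite ways. Nr2f2, the factor COUP-TFII that mesenchyme also carries, was lower on average in Pecam1-carrying cells, at 22.5, 233, 49.8, 185 and 65.6 CPM, against 133 to 1381 (median 649) CPM in the others. Slco2a1, the prostaglandin transporter, was higher without overlap, with 16.4, 73.2, 624, 358 and 348 CPM in Pecam1-carrying cells and 0 to 1.96 (median 0.402) CPM in the others. Ephb4, Vwf and Aplnr were detected in none of the 11. Lyve1, a hyaluronan receptor of lymphatic and some fetal lung endothelium, had 139, 22.8, 1.12, 119 and 1956 CPM in Pecam1-carrying cells and 0 to 3.21 (median 1.54) CPM in the others. Prox1, the defining lymphatic factor, was 0 in all 11 saline cells.

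Mesenchymal genes were present in the Pecam1-carrying cells at levels that overlapped those of the other cells. Of 30 mesenchymal genes listed, 15, 22, 12, 24 and 21 were detected in the Pecam1-carrying cells and 15, 19, 12, 17, 20 and 9 in the other cells. Their summed level was 27983, 25512, 16342, 21304 and 25996 CPM in Pecam1-carrying cells and 22376, 44736, 10952, 40648, 32960.2 and 11778 CPM in the others, a log2 ratio of medians of -0.12. This ratio turned positive, to 0.19, without cell 3, 5 or 8, and to 0.20 with the Pecam1 limit at 200 CPM, so it gives no direction.

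**Figure D2:**
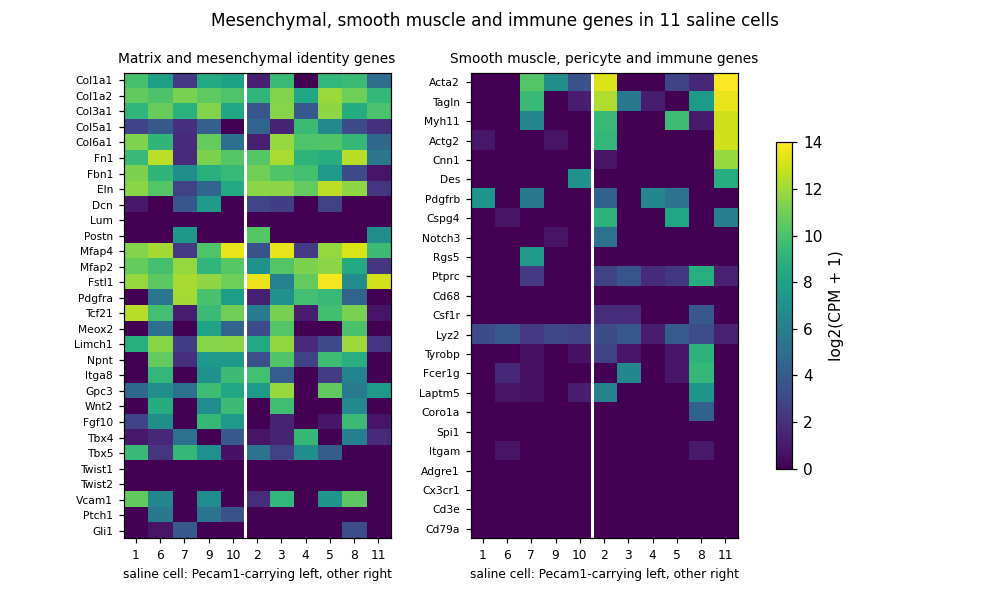
Levels of 30 mesenchymal genes (left panel) and of 24 smooth muscle, pericyte and immune genes (right panel) as log2(CPM + 1), colour scale 0 to 14, 1 row per gene and 1 column per saline cell, with the 5 Pecam1-carrying cells left of the white line. Col1a2 and Fstl1 are bright on both sides, cell 7 lacks Mfap4 and Tcf21, cells 2 and 11 hold the smooth muscle genes, and cell 8 the immune genes.

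Matrix genes were the most widely shared. Col1a2 and Col3a1 encode chains of the fibrillar collagens I and III. Col1a2 had 1518, 1092, 2311, 1491 and 1148 CPM in Pecam1-carrying cells and 328 to 3782 (median 1274) CPM in the others. Col3a1 had 601, 1712, 482, 2579 and 327 CPM in Pecam1-carrying cells and 11.8 to 3176 (median 721) CPM in the others. Both were detected in all 11 cells, with overlapping ranges. Col1a1, the other collagen I chain, had 968, 252, 3.92, 378 and 269 CPM in Pecam1-carrying cells and 0 to 750.0 (median 329) CPM in the others, and was near 0 in cell 7. Besides Col1a2 and Col3a1, Fbn1, Mfap2, Fstl1 and Gpc3 were detected in 5 of 5 Pecam1-carrying cells, and Fn1 and Fstl1 in 6 of 6 others.

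Transcription factors and receptors of mesenchyme set the 5 cells apart from each other. Tcf21, a bHLH factor of lung mesenchyme, had 5754, 911, 1.12, 773 and 1971 CPM in Pecam1-carrying cells and 0.741 to 2362 (median 461) CPM in the others, with its highest level of the 11 in cell 1 and next to none in cells 4, 7 and 11. Pdgfra, the PDGF-A receptor of fibroblast precursors, had 0, 44.9, 4353, 1022 and 219 CPM in Pecam1-carrying cells and 0 to 908 (median 77.6) CPM in the others. Cell 7 was the opposite of cell 1 in this pair, with the highest Pdgfra of the 11 and no Tcf21 to speak of. Mfap4, a microfibril protein, had 2690.0, 4511, 3.92, 1110.2 and 11278 CPM in Pecam1-carrying cells and 4.55 to 11643 (median 2173) CPM in the others. Meox2, a homeobox factor, had 0, 33.1, 0, 285 and 22.4 CPM in Pecam1-carrying cells and 0 to 1216 (median 4.25) CPM in the others. Cell 7 held next to none of either gene, and cells 3 and 8 were high in both. Dcn, the proteoglycan decorin, was detected in cells 7 and 9 alone, at 12.3 and 215 CPM. Vcam1, which encodes CD106, had 1519.6, 89.1, 0, 109 and 0 CPM in Pecam1-carrying cells and 0 to 1444 (median 81.5) CPM in the others, so it was detected in 3 of 5 and 3 of 6.

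Endothelial and mesenchymal markers thus stood in the same libraries. With 10 defining genes of each kind, Pecam1 not among them, and a cell called mixed when 3 or more of each were detected, 5 of 5 Pecam1-carrying cells were mixed, and 2 of 6 others, cells 2 and 3. Defining endothelial genes numbered 8, 8, 5, 7 and 8 in the Pecam1-carrying cells and 3, 3, 0, 1, 2 and 0 in the others. Defining mesenchymal genes numbered 6, 8, 5, 9 and 8 in the Pecam1-carrying cells and 5, 8, 4, 7, 7 and 4 in the others. Every saline cell thus passed the limit of 3 mesenchymal genes, and at this limit the mixed call turned on the endothelial genes alone. Pecam1, an endothelial gene, chose the cells, so the counts of 5 of 5 and 2 of 6 do not test mixing. The call depends on its limits: at 1 CPM all 6 other cells were mixed, and at 50 CPM, or with 5 or more genes of each kind, none was, while all 5 Pecam1-carrying cells kept the call at each of these settings. Because both marker lists were present, no cell type name is given to the Pecam1-carrying cells.

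**Figure D3:**
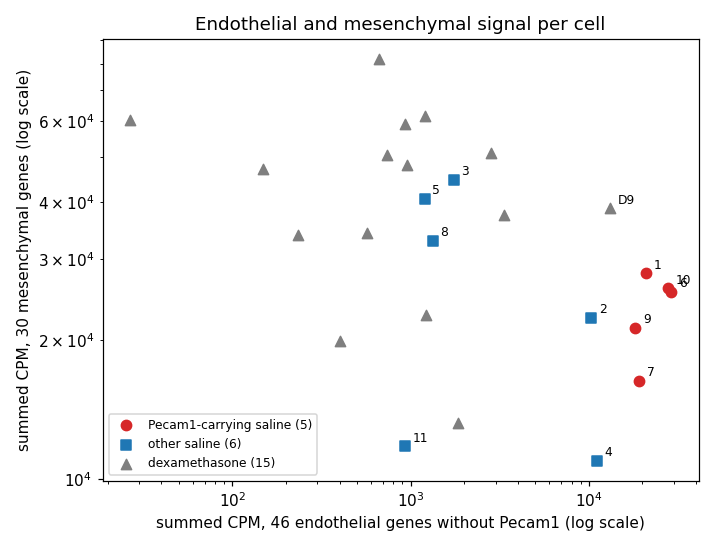
Each point is 1 cell, placed by its summed level of 46 endothelial genes without Pecam1 (x axis, CPM, log scale) and of 30 mesenchymal genes (y axis, CPM, log scale); circles are the 5 Pecam1-carrying saline cells, squares the 6 other saline cells and triangles the 15 dexamethasone cells, with D9 the only one of these above 100 CPM of Pecam1. The circles lie at 18194 to 29075 CPM on the endothelial axis, right of every other point, and at 16342 to 27983 CPM on the mesenchymal axis, within the range of the others.

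Markers of further cell types were mostly low in the Pecam1-carrying cells. The 10 smooth muscle and pericyte genes summed to 164, 0.69, 2212, 122 and 152 CPM in Pecam1-carrying cells and 16968, 49.8, 91.0, 1178, 203 and 54201 CPM in the other cells, with 0 to 5 of the 10 detected in Pecam1-carrying cells and 1 to 7 in the others. Acta2, smooth muscle actin, had 0, 0, 1215, 120.2 and 10.6 CPM in Pecam1-carrying cells and 0 to 21668 (median 4.12) CPM in the others, led by cells 2 and 11. Cell 7 was the highest of the 5 for this list, and it alone of the 11 carried the pericyte gene Rgs5, at 187 CPM. The 14 immune genes summed to 8.64, 16.6, 9.51, 6.75 and 7.63 CPM in Pecam1-carrying cells and 96.8, 120.5, 3.41, 21.4, 1824 and 2.96 CPM in the others, and the sum in cell 8 comes with 459.7 CPM of Ptprc, the leukocyte antigen CD45. Of the 17 epithelial genes, 0 to 2 were detected in Pecam1-carrying cells and 1 to 3 in the others. Epcam, the epithelial adhesion molecule, was 0 in all 11 cells, whereas Sftpc, the surfactant protein gene of alveolar type II cells, had 8.64, 83.5, 61.5, 135 and 40.8 CPM in Pecam1-carrying cells and 13.6 to 683 (median 128) CPM in the others. Sftpc was thus counted in cells without an Epcam count, up to 683 CPM in cell 3, and the part of such signal in the levels of other genes was not tested. The 11 erythroid genes summed to at most 0.864 CPM in Pecam1-carrying cells and 1.14 CPM in the others.

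**Figure D4:**
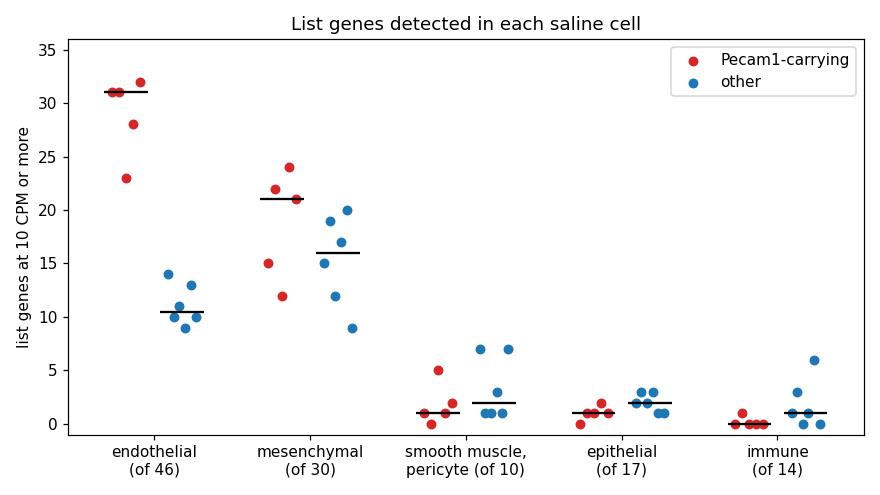
Number of genes of 5 marker lists at 10 CPM or more (y axis) in each saline cell, red points for the 5 Pecam1-carrying cells and blue points for the 6 other cells, with the bar at the median. The endothelial counts, 23 to 32 in Pecam1-carrying cells and 9 to 14 in the others, do not overlap, while those of the other 4 lists do.

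Ligands that pass between endothelium and mesenchyme were divided between the groups. Pdgfb, which encodes the pericyte attractant PDGF-B, had 1193, 368, 0, 125 and 255 CPM in Pecam1-carrying cells, absent from cell 7, and 0 to 1.01 (median 0) CPM in the others. Angpt1, the mesenchymal ligand of Tek, was the opposite, with 0, 0, 0, 41.2 and 2.95 CPM in Pecam1-carrying cells and 0 to 1483 (median 244) CPM in the others, where cells 2, 3, 5 and 8 held it. Figf (VEGF-D), a ligand of Flt4 and in human also of Kdr, had 226, 142, 0, 664 and 1041 CPM in Pecam1-carrying cells and 0 to 192 (median 0) CPM in the others, so it was detected in 4 of 5 and 2 of 6 cells. Vegfa, the main ligand of Kdr, had 0, 1.38, 3.36, 10.1 and 41.4 CPM in Pecam1-carrying cells and 0 to 128 (median 9.25) CPM in the others.

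Glucocorticoid target genes were read in the saline cells without added hormone. The 15 listed summed to 1269 to 3692 (median 2688) CPM in Pecam1-carrying cells. In the others they summed to 912 to 4411 (median 2309) CPM, so the groups overlapped on the list as a whole. Single genes of it varied. Zbtb16, a zinc finger factor known as a glucocorticoid target, had 969, 0, 393, 486 and 335 CPM in Pecam1-carrying cells, detected in 4 of 5, and 0 to 1.01 (median 0) CPM in the others. In the 15 dexamethasone cells it was detected in 1, with a highest level of 72.3 CPM. Tsc22d3 (GILZ), a further target, had 1619, 82.8, 1519, 469 and 822 CPM in Pecam1-carrying cells and 10.4 to 1962 (median 137) CPM in the others, detected in all 11. Fkbp5, a co-chaperone of the receptor, was detected in cell 10 alone of the 5, at 1064 CPM. Of 16 cell cycle genes listed, 1 to 2 were detected in Pecam1-carrying cells and 0 to 5 in the others. They summed to 52.0 to 390 CPM in Pecam1-carrying cells and 2.02 to 1071 CPM in the others. Mki67 was detected in cell 7 of the Pecam1-carrying cells, at 43.1 CPM, and Top2a in none of the 11 saline cells.

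Across all genes, 6131 had a mean of 20 CPM or more over the 11 saline cells. Of these 24.6% were 4-fold or more higher in Pecam1-carrying than in other cells by mean CPM (pseudocount 1), and 26.1% were 4-fold or more lower. Of the 47 endothelial genes, 34 passed that mean, 27 of them 4-fold or more higher and 2, Notch4 and Tm4sf1, 4-fold or more lower. Of the 30 mesenchymal genes, 25 passed, 2 (Dcn and Tbx5) higher and 4 (Col5a1, Postn, Meox2 and Tbx4) lower. The median log2 ratio was 4.71 for the endothelial members, -0.07 for the mesenchymal members and -0.10 for all 6131 genes, and it was also 4.71 with Sox17 and Sox18, which had no count in the other cells, set at 3 counts over that group. The rule used this same contrast and a gene high in 1 group passes the mean more easily, so these counts only describe the cells. Every Pecam1-carrying cell stood above every other cell for 46 genes, 0.750% of those measured, Pecam1 and 9 further endothelial genes among them. For some of the 46 the gap was near the floor. The lowest Pecam1-carrying cell had 0.591 CPM of Blcap and of Hhex, against 0 in the others, and 0.864 CPM of Apobec3, against up to 0.803 CPM. For 8 genes, 0.130%, every Pecam1-carrying cell stood below.

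The 15 genes with the highest ratio, of those detected in 4 or more Pecam1-carrying cells, were Ecscr, Icam2, Tspan13, Scarb1, Cog4, Fbxo38, Zbtb16, Ramp2, Pdgfb, Cyp4b1, Gata2, Arl5b, Stbd1, Podxl and Tmem100. Scarb1 encodes the HDL receptor SR-BI and had 1476, 371, 289.7, 12.8 and 103 CPM in Pecam1-carrying cells and 0 to 1.01 (median 0) CPM in the others. Tspan13, a tetraspanin, had 169, 95.3, 1139, 369 and 319 CPM in Pecam1-carrying cells and was 0 in all 6 others. Podxl, a sialomucin of vessel lumens and of podocytes, had 986, 7.59, 26.3, 174 and 172 CPM in Pecam1-carrying cells and 0 to 0.654 (median 0) CPM in the others. Cell 1 was the highest of the 5 for Scarb1 and Podxl, and cell 7 for Tspan13. Tmem100, an endothelial gene downstream of BMP signals, had 115, 619, 599.6, 1.35 and 253 CPM in Pecam1-carrying cells and 0 to 1.01 (median 0.327) CPM in the others. Cog4, Fbxo38, Arl5b and Stbd1, which act in Golgi trafficking, ubiquitin ligation, vesicle transport and glycogen handling, are in none of the marker lists.

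Further genes without overlap, picked out here after their values were seen, include vessel genes outside the lists. Ace, the angiotensin-converting enzyme of lung capillaries, had 848, 1134, 175, 504 and 486 CPM in Pecam1-carrying cells and 0 to 11.1 (median 0.803) CPM in the others. Cd36, a fatty acid receptor of microvessels, had 91.6, 223, 1295, 870.5 and 1174 CPM in Pecam1-carrying cells and 0 to 58.5 (median 20.7) CPM in the others. Cells 7 and 9, which held next to no Kdr, had both genes. Scn7a, a sodium channel family member, had 3618, 10168, 5164, 3276 and 4154 CPM in Pecam1-carrying cells and 25.2 to 819.9 (median 479) CPM in the others.

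At the low end, the 15 genes with the lowest ratio among those detected in 4 or more other cells were Entpd1, Impact, Bbs7, Dmd, Cul4a, Plod2, Mcur1, Kansl1l, Gm2a, Get4, Celf1, Tmem159, Ryk, Vps41 and Gtf2f1. Dmd, which encodes dystrophin, was 0 in all 5 Pecam1-carrying cells and 1.56 to 1122 (median 77.0) CPM in the others. Impact, a regulator of translation, had 0, 0.69, 3.92, 1.35 and 1.18 CPM in Pecam1-carrying cells and 10.1 to 2283 (median 656) CPM in the others. Plod2, a collagen lysyl hydroxylase, was 0 in all 5 Pecam1-carrying cells and 0 to 653 (median 118) CPM in the others. Entpd1 encodes CD39, an ectonucleotidase that endothelium is known to carry, yet it was 0 in all 5 Pecam1-carrying cells and 0 to 1585 (median 166) CPM in the others.

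Of the other saline cells, cell 4 was high for some endothelial genes, with no Pecam1 count and 4.55 CPM of Cdh5. It had 8428 CPM of Ets1, 740.4 of Fli1, 548 of Eng, 240.0 of Clec14a and 127 of Sox7. Ednrb, listed only for a capillary type, had 15982 CPM in cell 4. By number of genes cell 4 did not stand apart, with 11 of the 46 endothelial genes detected, against 9 to 14 over the 6 cells. The summed endothelial level of cell 4 was 11049 CPM, the highest of the 6, but 0 of the 10 defining endothelial genes were detected in it. Cell 2, with 10301 CPM, owed 6524 CPM of this sum to Cav1 and 1463 CPM to Tm4sf1, and it also had 9859 CPM of Acta2. Ets1 in cell 4 and Cav1 in cell 2 thus made up most of the endothelial sums of these cells.

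The same limit of 100 CPM, set on the saline cells, was applied to the 15 dexamethasone cells, which the choice of the 5 members did not use. It was passed by 1 of 15 dexamethasone cells, 6.67% (exact Clopper-Pearson 95% interval 0.169 to 31.9), and by 5 of 11 saline cells, 45.5% (16.7 to 76.6). The intervals cover counting of cells only and overlap, and with no animal named per cell the shares were not tested. Dexamethasone cell 9 had 175 CPM of Pecam1, 255 of Cdh5, 849 of Icam2, 758 of Ecscr, 219 of Ramp2, 809 of Emcn and 309 of Egfl7. It lacked Robo4, Gata2, Kdr, Tie1 and Car4, each at 0. With 20 of 46 endothelial genes detected and 13108 CPM summed, it stood above the sums of the other 14 dexamethasone cells, 26.6 to 3335 CPM, and below those of the 5 Pecam1-carrying saline cells. By number of genes dexamethasone cell 11, with 21, came above it, but that library stood apart: it had the fewest counts of the 26, 215623, with 12.1% of them on Rn45s and 12540.4 CPM of the epithelial genes, against 465 CPM in dexamethasone cell 9. The part of these in its gene count and its mixed signal was not tested. The mesenchymal sum of dexamethasone cell 9 was 38756 CPM, with 14872 CPM of Mfap4 and 2291 CPM of Tcf21. Dexamethasone cells 9 and 11 were the 2 of 15 with mixed signal. All 15 had 6 or more defining mesenchymal genes, so here too the call turned on the endothelial genes alone.

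Genes picked from the saline split were then read in the dexamethasone cells. Of the 45 genes besides Pecam1 in which every Pecam1-carrying saline cell stood above every other saline cell, dexamethasone cell 9 had 29 detected and the other 14 dexamethasone cells 2 to 19 (median 6.5). In the saline cells the same count was 40 to 42 in Pecam1-carrying and 4 to 12 in other cells, as the choice of genes fixes. Of the 15 leading genes, dexamethasone cell 9 had 5 detected and the other 14 dexamethasone cells 0 to 5, so on that shorter list it did not stand apart. Of the 6 core genes it had 4, against 0 to 2 in the other 14. By depth, dexamethasone cell 9 stood highest of the 15, with 1781606 counts. It had 4995 genes with a count, and dexamethasone cell 2 had 5067. The 16 cell cycle genes summed to 2609 CPM in dexamethasone cell 9, with 9 detected. In the other 14 they summed to 0 to 1085 CPM, with 0 to 6 detected. The part of depth and cell cycle signal in its numbers of detected genes was not tested.

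Endothelial genes were also read in the bulk libraries of CD106+ and CD106- cells, which hold 4987175 and 7133941 counts in CD106+ and 5198705 and 6007400 in CD106-. The labels describe removal of CD45, CD31 (PECAM1) and CD309 (KDR) positive cells before CD106 selection for accessibility samples, and do not say whether it was applied to these RNA fractions. Of 12364 genes tested by edgeR's quasi-likelihood test with Benjamini-Hochberg adjustment, 10.0% passed at 0.05, made up of 6.67% with more and 3.35% with less in CD106+ than in CD106-. Of the 47 endothelial genes, 34 passed the filter on low counts and 16 of them were higher in CD106+, 1 was lower and 17 did not pass. The median log2 fold change was 2.09 over the 34 members and 0.05 over all genes tested, and it stayed 2.09 with Tie1, which had no CD106- count, set at 3 counts over that fraction. In bulk samples more cells of a type and more RNA per cell cannot be told apart.

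**Figure D5:**
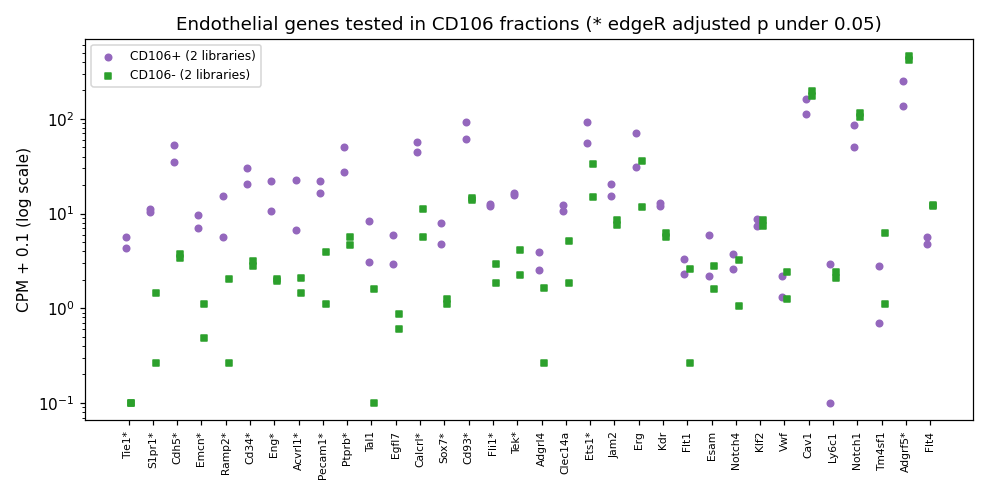
CPM + 0.1 (y axis, log scale) of the 34 endothelial genes tested in the bulk libraries, ordered by log2 fold change, with purple circles for the 2 CD106+ libraries and green squares for the 2 CD106- libraries; a star marks an edgeR adjusted p under 0.05. Cdh5 lies at 52.3 and 35.0 CPM in CD106+, against 3.27 and 3.66 CPM in CD106-, and Adgrf5 is the only starred gene with the squares on top.

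Pecam1 had 22.06 and 16.54 CPM in the CD106+ libraries, against 3.85 and 0.999 CPM in the CD106- libraries (mean 19.3 ± 3.90 and 2.42 ± 2.01, SD, n = 2 each, log2 fold change 2.99, edgeR adjusted p = 0.00148). Without CD106- library 2 its adjusted p was 0.0616. Cdh5 had 52.3 and 35.0 CPM in CD106+, against 3.27 and 3.66 CPM in CD106- (log2 fold change 3.61, edgeR adjusted p = 2.7e-06). Tie1 had 4.21 and 5.61 CPM in CD106+ and no count in either CD106- library (edgeR adjusted p = 0.00109). Cd93, Eng, Cd34, Calcrl and Ptprb were also higher in CD106+, and these 5 with Cdh5 and Tie1 are the 7 of the 16 that kept the call whichever of the 4 libraries was left out. Adgrf5, an adhesion receptor that alveolar epithelium also carries, was lower, with 249 and 137 CPM in CD106+, against 418 and 458 CPM in CD106- (log2 fold change -1.21, edgeR adjusted p = 0.0154), and it lost the call without either CD106- library. Kdr did not pass (11.8 and 12.9 CPM in CD106+, against 6.16 and 5.49 CPM in CD106-, edgeR adjusted p = 0.292).

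Of the genes that marked the Pecam1-carrying cells, some were too low in the bulk libraries to be tested. Of the 6 core genes only Ramp2 was tested, with 5.61 and 15.3 CPM in CD106+, against 1.92 and 0.166 CPM in CD106- (log2 fold change 3.29, edgeR adjusted p = 0.0117), a call lost without CD106+ library 2 or CD106- library 2. Of the 15 leading genes, 9 were tested: Ramp2 and Stbd1 were higher in CD106+, Podxl was lower and 6 did not pass. Stbd1 had 220.4 and 261 CPM in CD106+, against 116 and 95.7 CPM in CD106- (log2 fold change 1.14, edgeR adjusted p = 0.00565), and its adjusted p was 0.153 without CD106- library 1 and 0.288 without CD106- library 2, so neither higher call held in every fit that left out a library. Podxl had 104 and 87.6 CPM in CD106+, against 239.9 and 249 CPM in CD106- (log2 fold change -1.38, edgeR adjusted p = 0.00117), so it led the Pecam1-carrying cells and stood lower in the fraction with more Pecam1. All 15 genes at the low end were tested, and 0 passed by edgeR or by DESeq2, with 1, Dmd, under an unadjusted p of 0.05 (lower in CD106+). That count depends on the libraries and the filter: without CD106+ library 1 edgeR called 5 of the 15, Dmd, Plod2, Kansl1l and Celf1 lower and Gtf2f1 higher, and with no filter on low counts it called Dmd alone (edgeR adjusted p = 0.0430). Mesenchymal genes were higher in the same fraction: 22 of the 28 tested were higher in CD106+ and 0 lower (also 0 lower by DESeq2 or at an unadjusted p of 0.05), with a median log2 fold change of 2.75. Their part in the endothelial counts was not tested.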

How the data were processed

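RNA was measured in 26 single cells and in bulk libraries of fetal mouse lung. The authors deposited expected counts for each gene: 0.985 to 2.72% of values per single cell were not whole. The build mm10 is named, per the submitters' processing notes; the tools named there, with no role or order, are TopHat2, Bowtie2, Trim Galore, Partek, HOMER and MACS2. How reads were assigned to genes, and whether by strand, is not given in the sources used here, so reads of overlapping genes cannot be told apart. The tables held 24371 genes, 23065 of them with a GRCm38.p6 symbol, and 0 named as mitochondrial.

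CPM used each cell's total, which ran from 879285 to 1787997 counts in saline and from 215623 to 1781606 in dexamethasone cells. Detection was set at 10 CPM, and ratios used a pseudocount of 1. The marker lists and the cells were chosen with earlier results of these data known. Named genes are the lists and the 15 highest and 15 lowest ratios of mean CPM with a mean of 20 CPM or more, detected in 4 or more cells of the higher group; Ace, Cd36 and Scn7a were chosen after their values were seen. For 3 listed genes, symbols were matched through synonyms. No clusters were made and no doublet caller was run. Thinning to 800000 counts was added after seeing the data.

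Bulk counts were rounded and tested by edgeR's quasi-likelihood test (filterByExpr, TMM, robust, only the CD106 libraries) with Benjamini-Hochberg adjustment, and DESeq2 as an alternative. Nothing says the libraries of a fraction came from separate animals, so p-values measure only the spread between them. Scripts were tested on simulated data. Tools were R 4.3.3, edgeR 4.0.16, DESeq2 1.42.0, Python 3.11.15, pandas 2.3.3, scipy 1.17.1 and matplotlib 3.10.9.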

Additional observations from a re-analysis of the deposited data

Results flagged for a closer look

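In 4 of the 40 sums of gene lists over a group of cells that were checked on log2(CPM + 1), 1 cell lay far from the others of its group. Chance alone gives about 1 in 20 if the sums are independent and normally spread. The lists share genes, Cd93 and Gpihbp1 among them, so this check cannot tell whether 4 of 40 is more than chance. Among the other saline cells, the endothelial transcription factors summed to 9295 CPM in cell 4, while the remaining 5 cells had 52.2 to 133 CPM. Among the Pecam1-carrying cells, cell 1 was low for the venous genes, at 39.8 CPM, where the remaining 4 had 306 to 673 CPM. Cell 1 was also low for the general capillary genes, at 255 CPM, where the remaining 4 had 3879 to 6029 CPM. Cell 7 was low for the vascular ligands, at 145 CPM, where the remaining 4 had 913 to 1431 CPM. Cell 1 also had the highest share of Rn45s counts of the 11 saline cells, 3.88%, and the part of that in its low sums was not tested.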

How the results depend on the processing

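Calling every saline cell with a Pecam1 count Pecam1-carrying put 9 of 11 in that group and moved most values: the endothelial log2 ratio was 1.60 and the difference in median number of endothelial genes 12.5; the mesenchymal log2 ratio turned to 1.19 and the smooth muscle one was -7.36; 0 other cells were mixed; 3448 genes were 4-fold or more higher and 798 lower; and 6 dexamethasone cells passed. With a limit of 200 CPM the mesenchymal ratio turned to 0.20, and on TMM-scaled totals it was -0.55. Detection at 1 CPM gave a difference of 11 endothelial genes and 6 other and 8 dexamethasone cells with mixed signal; detection at 50 CPM gave 0 and 1, and 5 or more genes of each kind also 0 and 1. A mean of 5 CPM gave 2420 genes lower, and no filter gave 2520 higher and 2793 lower. The cause of these moves was not tested.

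Leaving out 1 saline cell at a time gave mesenchymal ratios of -0.37 to 0.19, positive at 0.19 without cell 3, 5 or 8, endothelial ratios of 3.59 to 3.99, smooth muscle ratios of -2.95 to -0.41, and 1 to 2 other cells with mixed signal. Leaving out 1 CD106 library gave 464 to 1432 genes higher (464 without CD106- library 1, 1432 without CD106+ library 1) and 79 to 1324 lower (79 without CD106- library 2, 1324 without CD106+ library 1). The endothelial list then had 11 to 18 members higher and 0 to 2 lower, and the leading genes 0 to 3 higher and 1 to 2 lower. A lone library was taken to vary like the other fraction.

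The CD106 labels number the libraries without saying that a number pairs them, and deviations of same-numbered libraries correlated at 0.00495 over 12364 genes. With the replicate number as a block, 855 genes were higher and 421 lower, 15 endothelial members were higher and 1 lower, and 3 leading genes were higher and 1 lower, with Zbtb16 added (edgeR adjusted p = 0.0357); of the genes lowest in Pecam1-carrying cells, Dmd was then lower (edgeR adjusted p = 0.0395).

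The split rests on 11 cells with no animal named, and a gene missed at 10 CPM may lie below detection. Altogether 196 values kept their direction and moved by less than the spread between cells or, for counts, by at most 1.5 times, 33 moved further and 5 reversed.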
